A study of Drosophila melanogaster with 16 samples.

Results

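L3 and L5 are lamina monopolar neurons of the fruit fly (Drosophila melanogaster) optic lobe, and RNA sequencing of L3 was set against that of L5 gene by gene. The comparison took the 4 L3 and 2 L5 libraries of a series of 16 libraries from 7 neuron types (L1 to L5 and the inner photoreceptors R7 and R8). A gene entered when its level was at least 1 RPKM in at least 2 of these 6 libraries, which kept 8534 of the 15682 genes measured. RPKM is the number of reads scaled to gene length and to library depth, so levels of different genes can be set side by side. Just outside this limit stood CG34340, with a second highest value of 0.999623 RPKM.

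Both groups were labelled wild type, with the optical lobe as tissue, and had been isolated by fluorescence-activated sorting after enzymatic dissociation of pupal brains. The labels do not say which driver lines marked the cells, how many animals were pooled, or how the replicates were obtained. The spread between libraries, on which every p-value here rests, may therefore be technical. Ages conflict. The age field gives 40 h after pupal formation for L3 and 53 h for L5, while the dissection protocol gives 40 h for both, and the column headings also carry 40 h. The age field holds 1 age per type, rising from 24 h for L1 to 96 h for R8 in the order of the samples, and its 7 ages are the time points that the design text lists for R cells. The 53 h of L5 is therefore uncertain. If the age field is right, cell type and age cannot be told apart in this comparison. By its title, the series asked whether immunoglobulin superfamily ligands and their receptors are expressed in a complementary way by synaptic partners.

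Each column of the lamina holds the same set of monopolar neurons, which send their axons in parallel into the medulla and end in layers typical of their type. L3 is among the direct targets of the outer photoreceptors, which release histamine, and it senses histamine through the chloride channel Ort. L5 lacks this direct photoreceptor input and is driven by other lamina neurons. The zinc finger factor Erm is the best known identity factor of L3, and the homeodomain factors Bsh and Pdm3 mark L5, with Bsh shared with L4. At mid-pupal stages these axons have reached the medulla and synapses are beginning to form, with recognition proteins of the Dpr, DIP, Beat and Side families on many of the cells.

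Recovered depth was 65.0 to 81.0 M reads in L3 and 47.1 and 100.4 M reads in L5, and 3 reads amount to 0.0149 to 0.0319 RPKM for a 2 kb gene in these 6 libraries. Log2 levels correlated at r = 0.936 to 0.982 among L3 libraries, 0.979 between the L5 libraries, and 0.866 to 0.895 between the types (Pearson, 8534 genes, which are not independent replicates). L3 replicates 1 and 2 resembled each other most and had 4.17% and 3.96% of reads on mitochondrial genes, against 14.6% and 9.60% in L3 replicates 3 and 4, 5.06% in L5 replicate 1 and 9.09% in L5 replicate 2. Photoreceptor genes were measured at a low level in every L3 library, with 21 marker genes summing to 100.4 to 215 RPKM in L3, 25.8 to 36.7 RPKM in L5 and 4005 to 4497 RPKM in R7 and R8. Levels in R7 and R8 are given beside some of the L3 genes that these cells also contained, and their part in the differences was not tested.

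L3 and L5 differed in 853 genes, of which 499 were higher and 354 lower in L3. These are 10.0% of the genes tested, or 5.85% higher and 4.15% lower (limma on log2(RPKM + 1), Benjamini-Hochberg adjusted p under 0.05). The difference exceeded 2-fold for 469 of the higher and 323 of the lower genes, and 8-fold for 119 and 70. It exceeded 32-fold for 41 of the higher and 15 of the lower genes. The median log2 difference, L3 minus L5, over all genes tested was 0.0051. With only 2 L5 libraries the counts depended on each of them, falling to 252 higher and 147 lower without L5 replicate 1 and to 228 and 195 without L5 replicate 2.

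**Figure D1:**
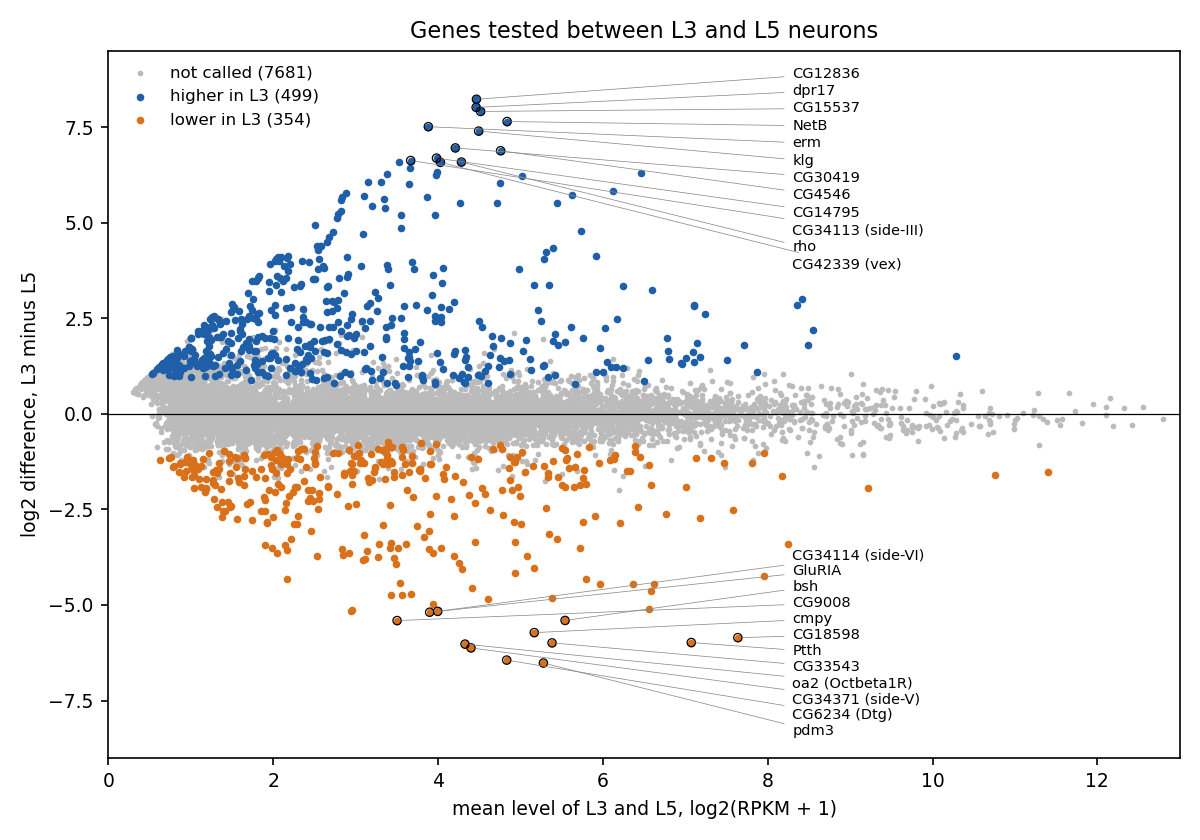
Log2 difference between L3 and L5 (vertical axis, log2(RPKM + 1), L3 minus L5) against the mean level of both types (horizontal axis) for the 8534 genes tested, each point a gene. Blue points mark 499 genes called higher in L3 and orange points 354 called lower, and the 24 circled genes, 12 in each direction, are the largest called differences among genes of at least 10 RPKM in the higher type whose libraries do not overlap.

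The other lamina types help to place these genes. Of the 499 genes higher in L3, 167 had an L3 mean at least 2-fold above the mean of each of the other 4 lamina types (on RPKM + 1), and 88 had an L5 mean at least 2-fold below each of the other 4. Of the 354 genes lower in L3, 134 had L5 at least 2-fold above every other lamina type, and 23 had L3 at least 2-fold below every other. The remaining 250 and 199 genes met neither condition. These are descriptions, since a call between L3 and L5 already favours such an order. Among all genes tested, called or not, 269 had L3 at least 2-fold above every other lamina type, and 117 had L5 at least 2-fold below. For 155 genes L5 was at least 2-fold above every other lamina type, and for 27 L3 was at least 2-fold below.

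The factors that mark the types separated them without overlap, which held for 33.0% of all genes tested. The zinc finger gene erm was measured at 237, 198, 131 and 250.3 RPKM in L3 and 0.0312 and 0.155 RPKM in L5. All 4 L3 libraries were far above both L5 libraries, and L1, L2, L4, R7 and R8 had means of 0.285 to 1.46 RPKM. For erm the log2 difference was 7.51 ± 0.29 (SE, adjusted p = 3.93e-06). The POU-homeodomain gene pdm3 stood at 1.68, 4.23, 3.01 and 3.78 RPKM in L3 and 423 and 325 RPKM in L5, the reverse order. For pdm3 the log2 difference was -6.52 ± 0.30 (SE, adjusted p = 9.03e-06). The homeobox gene bsh was at 5.68, 6.92, 6.67 and 5.45 RPKM in L3 and 339 and 269 RPKM in L5 (log2 difference -5.41 ± 0.21 (SE), adjusted p = 3.93e-06), and the L4 mean was 509.6 RPKM. The 3 genes therefore ran as their labels call for, and L3 libraries contained a low level of bsh, above the 0.72 to 3.52 RPKM of L1, L2, R7 and R8.

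Among 21 genes for lamina transcription factors, 19 were tested, 3 were higher in L3, 4 were lower and 12 were not called. Calls made up 36.8% of those tested, against 10.0% of all genes. The list had a median log2 difference of 0.48. Besides erm, the higher genes were zfh1 and sim. The zinc finger-homeodomain gene zfh1 was measured at 16.4, 11.32, 14.5 and 20.97 RPKM in L3 and 0.319 and 0.169 RPKM in L5. For zfh1 the log2 difference was 3.73 ± 0.27 (SE, adjusted p = 6.4e-05). Among the other lamina types only L1 held it at a like level, 14.9 RPKM, with 0.147 and 0.318 RPKM in L2 and L4. The gene sim, for a bHLH-PAS factor known from the ventral midline, was at 18.6, 17.4, 13.7 and 17.5 RPKM in L3 and 0.0240 and 0.0422 RPKM in L5. For sim the log2 difference was 4.10 ± 0.21 (SE, adjusted p = 1.24e-05). Every lamina type but L5 contained it, with means of 18.2, 15.7 and 16.5 RPKM in L1, L2 and L4.

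The forkhead gene pair slp1 and slp2 was lower in L3. Levels of slp1 were 19.2, 18.1, 16.4 and 19.8 RPKM in L3 and 452 and 505 RPKM in L5, and those of slp2 were 4.88, 3.95, 4.28 and 3.07 RPKM in L3 and 62.2 and 68.8 RPKM in L5. For neither gene did the libraries of the types overlap. The log2 difference was -4.63 for slp1 (adjusted p = 6.4e-06) and -3.73 for slp2 (adjusted p = 2.29e-05). For slp1 the means were 437, 322 and 19.0 RPKM in L1, L2 and L4, so L5 stood with L1 and L2, and L3 with L4. The homeobox gene hth missed the threshold, although both L5 libraries were above all L3 libraries (14.8 to 20.05 RPKM in L3 against 39.8 and 26.4 RPKM in L5, adjusted p = 0.0563). Of the nuclear factors dac and scro, which both types expressed, dac was at 82.7 to 95.8 RPKM in L3 against 73.4 and 46.3 RPKM in L5 (adjusted p = 0.2) and scro at 66.2 to 88.8 RPKM in L3 against 57.0 and 70.1 RPKM in L5 (adjusted p = 0.497). The genes bab1 and bab2, high in L2, ap, high in L4, and svp, high in L1, were at or below 2.09 RPKM on average in L3 and L5, and svp did not pass the limit on low values.

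**Figure D2:**
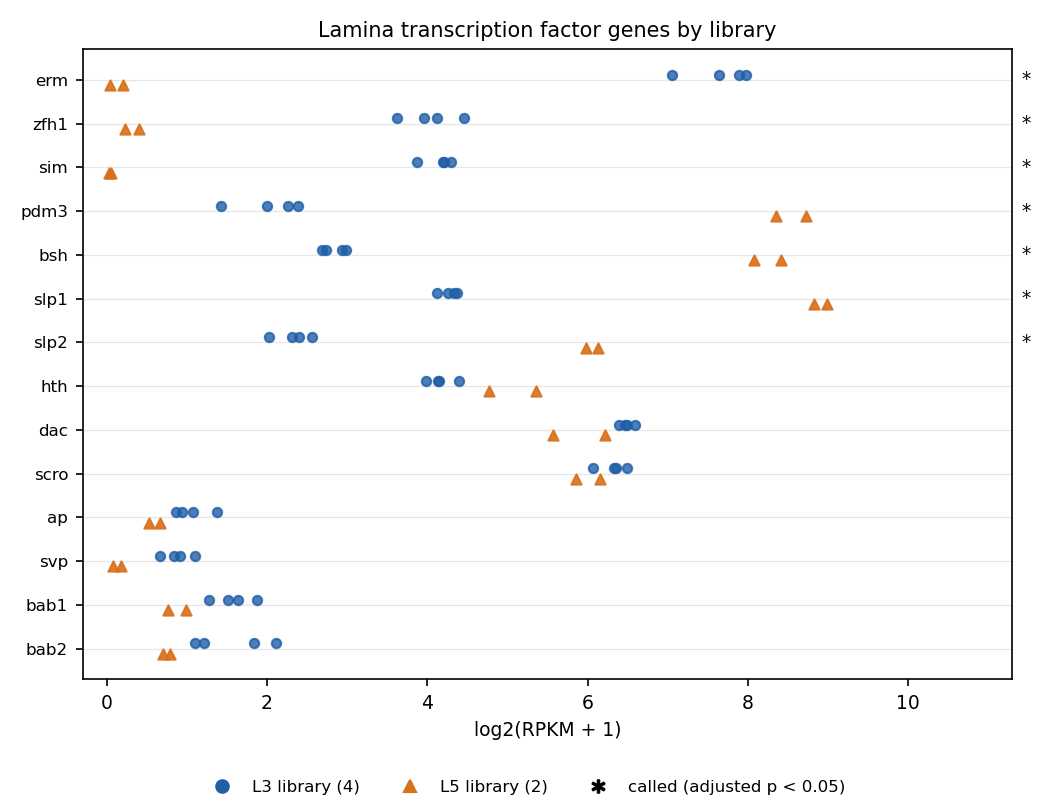
Levels of 14 lamina transcription factor genes in each library, as log2(RPKM + 1), with circles for the 4 L3 libraries, triangles for the 2 L5 libraries and a star for a called gene. Among the called genes, erm, zfh1 and sim are higher in L3, and pdm3, bsh, slp1 and slp2 in L5, all without overlap. Genes not called, such as hth and dac, can also lack overlap.

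The largest differences went beyond these factors. The greatest increase in L3 was in CG12836, at 384, 432, 287 and 447 RPKM in L3 and 0.160 and 0.401 RPKM in L5 (log2 difference 8.23 ± 0.25 (SE), adjusted p = 2.66e-06), and the highest mean of the other lamina types was 232 RPKM. CG15537, next after CG12836 and dpr17, was at 712, 448, 119.6 and 411 RPKM in L3 and 0.826 and 0.190 RPKM in L5. For CG15537 the log2 difference was 7.91 ± 0.63 (SE, adjusted p = 0.000114). L3 replicate 3 was the lowest L3 library for CG15537 and still far above L5. The genes CG30419 (171 to 271 RPKM in L3 against 0.564 and 0.762 RPKM in L5, log2 difference 6.96), CG4546 (216 to 456 RPKM in L3 against 1.88 and 1.16 RPKM in L5, 6.88) and CG42339 (vex; 123 to 185 RPKM in L3 against 0.625 and 0.714 RPKM in L5, 6.58) also stood among the 12 largest. For each of these 3 genes another of L1, L2 and L4 was high too, with highest means of 157, 407 and 598 RPKM.

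The intramembrane protease gene rho, which releases ligands of the EGF receptor, was at 208, 166, 208 and 181 RPKM in L3 and 1.013 and 0.960 RPKM in L5. All L3 libraries were far above both L5 libraries, and the highest mean of another type was 34.8 RPKM, in the photoreceptors. For rho the log2 difference was 6.59 ± 0.20 (SE, adjusted p = 2.66e-06). CG14795 was at 86.5 to 304 RPKM in L3 against 1.22 and 0.0880 RPKM in L5 (log2 difference 6.69, adjusted p = 0.000163). Its exons lie wholly within those of other genes in the current annotation, so its reads are uncertain, and R7 and R8 had means of 102 to 136 RPKM. The remaining higher genes of this kind, dpr17, NetB, klg and CG34113 (side-III), are described with their families.

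In the other direction, the gene for prothoracicotropic hormone (Ptth), the brain peptide that drives ecdysone release, was measured at 16.5, 20.9, 16.9 and 10.9 RPKM in L3 and 831 and 1378 RPKM in L5. L5 was high in both libraries, L3 was intermediate, and L1, L2 and L4 had means of 0.109 to 2.66 RPKM. For Ptth the log2 difference was -5.98 ± 0.32 (SE, adjusted p = 1.29e-05). CG6234 (Dtg) was at 0.887 to 4.03 RPKM in L3 against 258 and 272 RPKM in L5 (log2 difference -6.44, adjusted p = 3.43e-05) and was at most 7.33 RPKM on average in any other type. The gene cmpy, for the transmembrane protein Crimpy, which binds the BMP ligand Gbb, was at 2.79 to 5.18 RPKM in L3 against 285 and 238 RPKM in L5 (log2 difference -5.72, adjusted p = 9.03e-06). CG9008 was at 0.385 to 1.25 RPKM in L3 against 71.1 and 74.7 RPKM in L5 (log2 difference -5.41). CG33543 was at 2.08 to 8.62 RPKM in L3 against 285 and 387 RPKM in L5 (log2 difference -5.99, with 14.5% of its exonic bases shared with other genes). CG18598 was at 14.5 to 53.7 RPKM in L3 against 1382 and 1659 RPKM in L5 (log2 difference -5.86), but its exons are wholly shared with other genes and its reads are uncertain.

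Dpr proteins are short immunoglobulin proteins of the cell surface that bind partners of the DIP family in trans. All 21 dpr genes were tested, and 10 were higher and 2 lower in L3, 57.1% of the list against 10.0% of all genes. The list had a median log2 difference of 0.74. The 21 genes summed to 1597 to 1910 RPKM in L3, 813 and 1011 RPKM in L5 and 314 to 435 RPKM in R7 and R8. The most different member was dpr17, with 338, 384, 354 and 342 RPKM in L3 and 0.487 and 0.260 RPKM in L5. All L3 libraries lay within 338 to 384 RPKM, both L5 libraries were below 1 RPKM, and no other type exceeded 2.05 RPKM on average. For dpr17 the log2 difference was 8.02 ± 0.20 (SE, adjusted p = 2e-06).

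Several dpr genes were close to silent in L5. Levels of dpr3 were 115, 117, 125 and 111 RPKM in L3 and 0.546 and 0.203 RPKM in L5, without overlap, and L1 was the next highest lamina type at 21.6 RPKM. For dpr3 the log2 difference was 6.43 ± 0.20 (SE, adjusted p = 2.66e-06). For dpr16 the values were 32.0, 29.5, 17.7 and 25.2 RPKM in L3 and 0.275 and 0.245 RPKM in L5. For dpr16 the log2 difference was 4.39 ± 0.27 (SE, adjusted p = 2.68e-05). For dpr15 they were 8.61, 7.45, 5.38 and 5.85 RPKM in L3 and 0.0487 and 0.0400 RPKM in L5 (log2 difference 2.89 ± 0.25 (SE), adjusted p = 0.000188), with 43.5 RPKM in L1. The products of dpr15, dpr16 and dpr17 share the partner DIP-gamma, and all 3 genes were low in both L5 libraries, whereas dpr11, which encodes a further partner of DIP-gamma, was low in both types (0.599 to 1.36 RPKM in L3 against 1.84 and 0.795 RPKM in L5).

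The founding member dpr (dpr1) was measured at 319, 241, 311 and 257 RPKM in L3 and 9.83 and 8.43 RPKM in L5, high in every L3 library (log2 difference 4.80 ± 0.23 (SE), adjusted p = 9.03e-06), and L4 had a like mean of 298 RPKM. Means of dpr were 40.2 and 10.0 RPKM in R7 and R8. Its relatives dpr2 (10.4 to 15.5 RPKM in L3 against 0.311 and 0.240 RPKM in L5, log2 difference 3.36) and dpr5 (29.9 to 77.6 RPKM in L3 against 3.45 and 3.22 RPKM in L5, log2 difference 3.65) were also higher in L3, while dpr4 did not pass (11.5 to 21.4 RPKM in L3 against 15.4 and 11.97 RPKM in L5, adjusted p = 0.662). Of the genes for the partners of DIP-alpha, dpr6 was higher in L3 (71.5, 73.0, 89.6 and 125 RPKM in L3 and 22.4 and 10.5 RPKM in L5; log2 difference 2.43, adjusted p = 0.00332), and dpr10 missed the threshold with no overlap (61.3 to 69.8 RPKM in L3 against 41.9 and 36.6 RPKM in L5, adjusted p = 0.058).

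The genes lower in L3 were dpr20 and dpr9. Levels of dpr20 were 1.79, 5.15, 2.998 and 1.91 RPKM in L3 and 35.9 and 41.7 RPKM in L5 (log2 difference -3.40 ± 0.34 (SE), adjusted p = 0.000431), and L1 held 52.7 RPKM. Levels of dpr9 were 3.35, 3.61, 3.02 and 5.10 RPKM in L3 and 19.2 and 7.55 RPKM in L5. For dpr9 the log2 difference was -1.48 ± 0.36 (SE, adjusted p = 0.0389). The call for dpr9 was lost without L3 replicate 1, 2 or 3 or L5 replicate 1 (adjusted p 0.0587 to 0.33). Among the low L3 genes, dpr12 (2.98 to 5.96 RPKM in L3 against 0.775 and 0.118 RPKM in L5, adjusted p = 0.00808) was lost without L5 replicate 2 (adjusted p = 0.106), and dpr13 (1.89 to 4.29 RPKM in L3 against 0.203 and 0.518 RPKM in L5, adjusted p = 0.0274) without L3 replicate 1 or L5 replicate 1 or 2 (adjusted p 0.0758 to 0.235). The most abundant member in L5, dpr8, was not called (282 to 648 RPKM in L3 against 535 and 338 RPKM in L5, log2 difference -0.07, adjusted p = 0.946), and dpr7, dpr14, dpr18, dpr19 and CG42596 (dpr21) were not called either (log2 differences of -0.37 to 0.19).

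The DIP genes, for the partners, were low in both types. Of 10 genes matched, 2 passed the limit on low values and none was called by limma, nor was either at an unadjusted p under 0.05. CG32791 (DIP-alpha) was at 0.699 to 5.90 RPKM in L3 against 0.790 and 0.485 RPKM in L5 (adjusted p = 0.229, and 0.0313 without L3 replicate 3, its lowest L3 library), and CG14521 (DIP-gamma) at 0.223 to 2.02 RPKM in L3 against 0.350 and 0.0997 RPKM in L5 (adjusted p = 0.292). The 10 genes together summed to 2.17 to 8.55 RPKM in L3 and 1.02 and 1.75 RPKM in L5.

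Beat and Side proteins form a further ligand and receptor network of the immunoglobulin superfamily, in which Beat-Ia on motor axons binds Side. Among 14 beat genes, 10 were tested, 6 were higher in L3 and 1 was lower, with a median log2 difference of 1.67. Calls made up 70.0% of those tested, against 10.0% of all genes. Levels of beat-IIa were 375, 302, 238 and 229.8 RPKM in L3 and 2.76 and 2.73 RPKM in L5. For beat-IIa the log2 difference was 6.23 ± 0.26 (SE, adjusted p = 5.25e-06). Its neighbour in the family beat-IIb was at 191, 154, 177 and 247 RPKM in L3 and 7.62 and 9.16 RPKM in L5. For beat-IIb the log2 difference was 4.34 ± 0.25 (SE, adjusted p = 1.93e-05). For both, L3 and L4 were the high lamina types, with L4 means of 146 and 203 RPKM.

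L5 stood apart from the other 4 lamina types for beat-IIIb, with 113, 87.2, 112 and 100.2 RPKM in L3 and 0.909 and 1.18 RPKM in L5 (log2 difference 5.66 ± 0.21 (SE), adjusted p = 3.33e-06) and means of 103, 99.5 and 137 RPKM in L1, L2 and L4. For beat-IV the values were 66.5, 51.1, 66.5 and 56.1 RPKM in L3 and 0.361 and 0.421 RPKM in L5 (log2 difference 5.45 ± 0.21 (SE), adjusted p = 3.67e-06), and L1 was low too at 2.61 RPKM. The lower gene was beat-VI, at 15.4, 15.6, 14.2 and 13.1 RPKM in L3 and 184 and 170.1 RPKM in L5. For beat-VI the log2 difference was -3.52 ± 0.19 (SE, adjusted p = 1.59e-05). The calls for beat-Ia (1.48 to 4.50 RPKM in L3 against 0.234 and 0.191 RPKM in L5, adjusted p = 0.0253) and beat-IIIa (1.66 to 3.63 RPKM in L3 against 0 and 0.142 RPKM in L5, adjusted p = 0.00751) rested on low levels. They were lost without L3 replicate 1 or L5 replicate 1 or 2 (adjusted p 0.0638 to 0.17) and without L5 replicate 1 or 2 (adjusted p 0.0591 to 0.0871) respectively, which left 4 higher genes without either L5 library.

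Of 8 side genes, all tested, 4 were higher and 3 lower in L3, counts that held when any library was left out. That is 87.5% called, against 10.0% of all genes. The list had a median log2 difference of 1.16. CG34113 (side-III) was measured at 79.8, 107, 156 and 185 RPKM in L3 and 0.390 and 0.175 RPKM in L5 (log2 difference 6.63 ± 0.35 (SE), adjusted p = 1.26e-05), and among the other types only L4, at 15.3 RPKM, exceeded 1 RPKM on average. The gene side itself was at 379.6, 306, 146 and 232 RPKM in L3 and 18.2 and 9.83 RPKM in L5, with L3 replicate 3 lowest among the L3 libraries. For side the log2 difference was 4.13 ± 0.41 (SE, adjusted p = 0.000427). CG12484 (side-VIII) was also higher in L3 (20.1 to 28.4 RPKM in L3 against 4.38 and 1.65 RPKM in L5, log2 difference 2.68, adjusted p = 0.000897). CG14372 (side-IV) was higher at a lower level (4.09 to 6.86 RPKM in L3 against 0.431 and 0.558 RPKM in L5, log2 difference 1.98, adjusted p = 0.00182), and 67.5% of its exonic bases overlap other genes.

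The 3 lower side genes were as sharply separated. CG34371 (side-V) was at 1.18, 2.25, 1.16 and 1.67 RPKM in L3 and 214 and 144 RPKM in L5 (log2 difference -6.12 ± 0.27 (SE), adjusted p = 6.6e-06), and no other lamina type exceeded 3.56 RPKM on average. CG34114 (side-VI) was at 0.994, 1.98, 1.71 and 2.12 RPKM in L3 and 106 and 84.4 RPKM in L5 (log2 difference -5.17 ± 0.25 (SE), adjusted p = 1.09e-05), with an L4 mean of 83.1 RPKM. CG42313 (side-II) was at 3.66, 4.87, 3.28 and 3.56 RPKM in L3 and 81.1 and 76.2 RPKM in L5 (log2 difference -4.05 ± 0.21 (SE), adjusted p = 1.26e-05), with an L1 mean of 251 RPKM. Of the whole family only CG12950 (side-VII) was not called (16.4 to 37.4 RPKM in L3 against 20.01 and 21.1 RPKM in L5, adjusted p = 0.638).

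**Figure D3:**
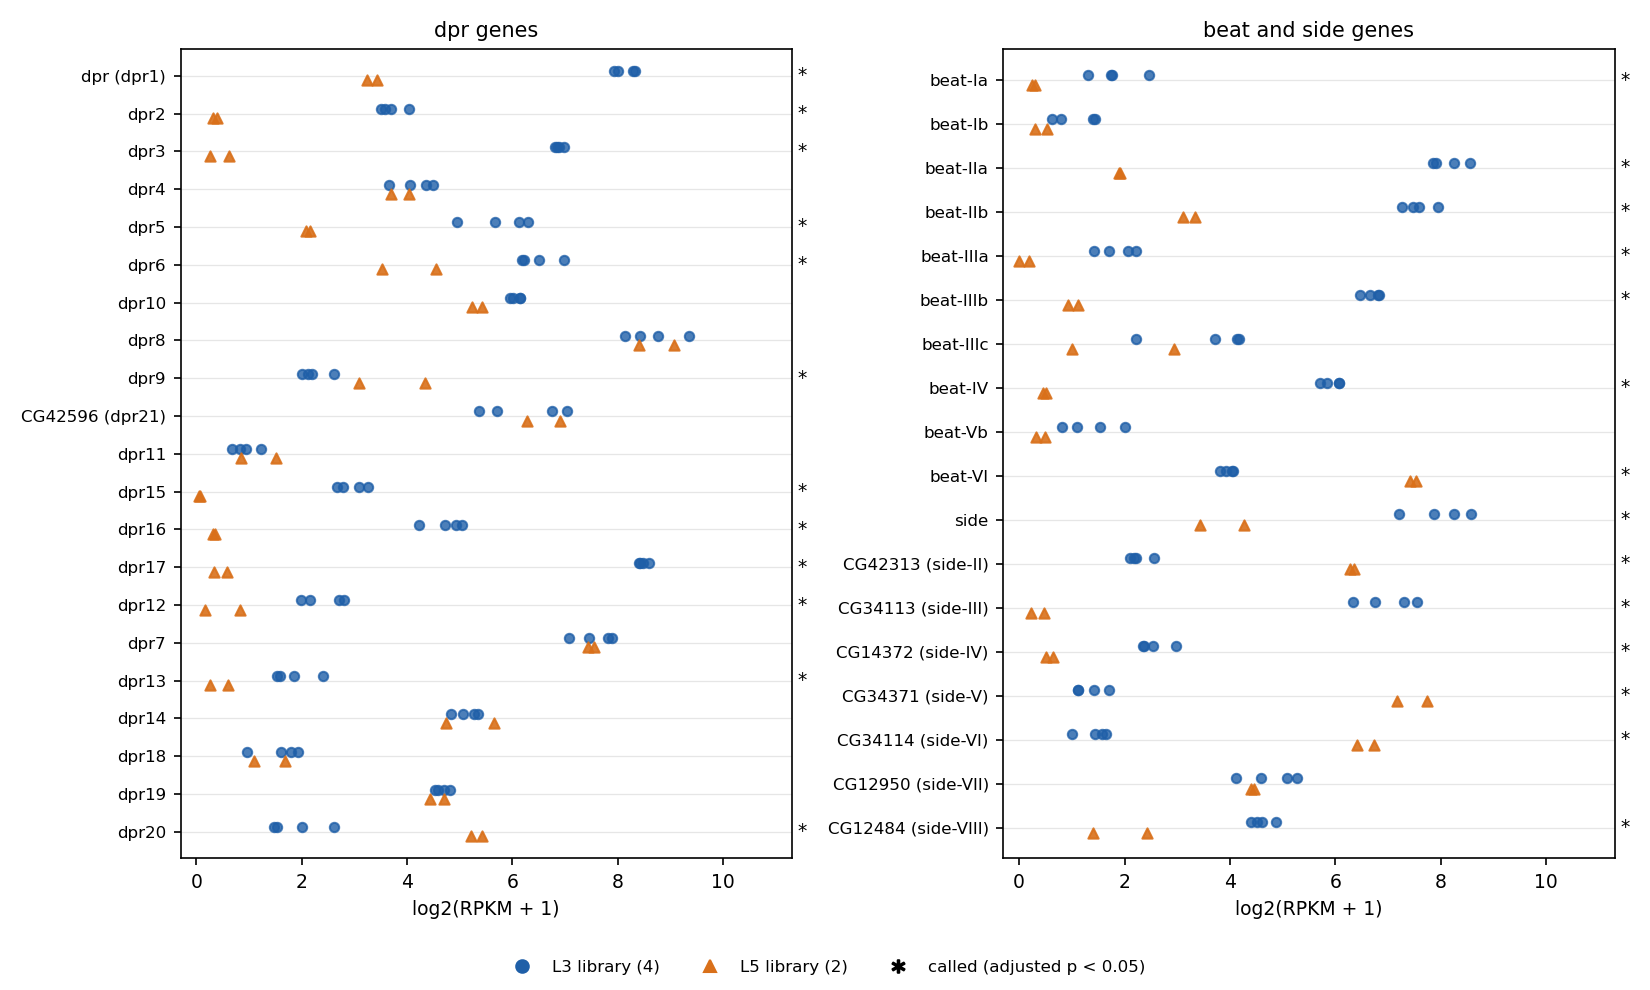
Levels of the 21 dpr genes (left) and of the 10 beat and 8 side genes tested (right) in each library, as log2(RPKM + 1), with circles for the 4 L3 libraries, triangles for the 2 L5 libraries and a star for a called gene. In dpr17, dpr3, beat-IIIb and CG34113 (side-III) the L3 libraries are all far to the right, while in beat-VI, CG42313 (side-II), CG34371 (side-V) and CG34114 (side-VI) the L5 libraries are.

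Netrins are secreted guidance cues, and Netrin made by L3 is known to act on photoreceptor axons in the medulla. Among 30 genes for guidance cues and receptors, 29 were tested, 8 were higher in L3 and 3 lower. The median log2 difference was 0.22, and 37.9% of those tested were called, against 10.0% of all genes. The list held Dys, the dystrophin gene, by a naming error. Levels of NetB were 534, 353, 368 and 384 RPKM in L3 and 1.5014 and 0.631 RPKM in L5. L3 replicate 1 was the highest L3 library, and the means of the other 5 types were 0.492 to 6.47 RPKM. For NetB the log2 difference was 7.65 ± 0.27 (SE, adjusted p = 3.33e-06). NetA was at 16.9, 11.6, 8.76 and 6.91 RPKM in L3 and 0 and 0.0798 RPKM in L5, lower than NetB but likewise without overlap. For NetA the log2 difference was 3.47 ± 0.33 (SE, adjusted p = 0.000344).

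The netrin receptor genes went in opposite directions. Levels of fra, for the attractive receptor Frazzled, were 7.14, 6.92, 7.94 and 5.97 RPKM in L3 and 0.814 and 1.28 RPKM in L5 (log2 difference 1.97 ± 0.22 (SE), adjusted p = 0.000825), with means of 9.17 and 18.3 RPKM in R7 and R8. Levels of unc-5, for the repulsive receptor, were 4.03, 4.67, 6.39 and 4.34 RPKM in L3 and 13.7 and 14.7 RPKM in L5. For unc-5 the log2 difference was -1.39 ± 0.23 (SE, adjusted p = 0.00631). The call for unc-5 was lost without L5 replicate 1 or 2 (adjusted p 0.0693 to 0.0858).

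Of the genes for the Derailed family of receptors, drl and Drl-2 were higher in L3, and dnt was not called (19.7 to 26.5 RPKM in L3 against 27.6 and 28.6 RPKM in L5, adjusted p = 0.588). The Wnt5 receptor gene drl was at 327, 257, 248 and 242 RPKM in L3 and 78.1 and 69.4 RPKM in L5 (log2 difference 1.84 ± 0.23 (SE), adjusted p = 0.00155), and otk, for a pseudokinase, at 31.9, 23.4, 28.7 and 23.6 RPKM in L3 and 2.46 and 2.29 RPKM in L5. For otk the log2 difference was 3.04 ± 0.22 (SE, adjusted p = 6.06e-05). R7 and R8 had means of 66.3 and 52.7 RPKM for otk. Drl-2 was at 2.66 to 5.70 RPKM in L3 against 0.798 and 0.663 RPKM in L5 and was lost without L5 replicate 1 or 2 (adjusted p 0.0857 to 0.106). The ligand gene Wnt5 was low in both types (1.27 to 1.73 RPKM in L3 against 1.67 and 1.55 RPKM in L5, adjusted p = 0.921).

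Golden goal (gogo), a transmembrane protein of photoreceptor axon targeting, had levels of 63.3, 52.4, 36.6 and 49.7 RPKM in L3 and 5.65 and 5.62 RPKM in L5. For gogo the log2 difference was 2.93 ± 0.25 (SE, adjusted p = 0.000178). The secreted ligand gene jeb was at 156 to 243 RPKM in L3 against 71.8 and 53.0 RPKM in L5 (log2 difference 1.65, adjusted p = 0.00529, lost without L5 replicate 2 (adjusted p = 0.0859)), and the gene for its receptor Alk was not called (57.6 to 91.1 RPKM in L3 against 60.8 and 54.5 RPKM in L5, adjusted p = 0.464). Lower in L3 were the Slit receptor gene lea (robo2), at 0.783, 2.43, 0.630 and 1.62 RPKM in L3 and 35.5 and 27.0 RPKM in L5 (log2 difference -3.82 ± 0.34 (SE), adjusted p = 0.000219), and Sema-2b, for a secreted semaphorin, at 1.11, 1.30, 1.43 and 0.894 RPKM in L3 and 8.29 and 8.97 RPKM in L5. For Sema-2b the log2 difference was -2.15 ± 0.22 (SE, adjusted p = 0.00053). Of lea, 41.0% of the exonic bases overlap other genes. The other Slit receptor genes robo and robo3 and the plexin genes were not called, with log2 differences of -0.47 to 0.27.

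Further adhesion genes went both ways. Of 35 tested genes of the nephrin, Dscam, fasciclin, leucine-rich repeat, teneurin and related groups, 11 were higher and 6 lower in L3. Their median log2 difference was 0.30, and 48.6% were called, against 10.0% of all genes. The gene klg, for the immunoglobulin protein Klingon, was measured at 343, 318, 261 and 253 RPKM in L3 and 1.03 and 0.484 RPKM in L5 (log2 difference 7.40 ± 0.24 (SE), adjusted p = 2.66e-06), with means of 371 and 221 RPKM in R7 and R8 and 179 RPKM in L4. Lac, for Lachesin, was at 237, 153, 174 and 152 RPKM in L3 and 3.71 and 2.20 RPKM in L5. For Lac the log2 difference was 5.51 ± 0.27 (SE, adjusted p = 1.13e-05). For Lac, L5 was the only low lamina type, the others having means of 196, 429.5 and 255 RPKM in L1, L2 and L4.

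Fas3, for a homophilic fasciclin, was at 169, 134, 175 and 158 RPKM in L3 and 10.6 and 6.91 RPKM in L5 (log2 difference 4.06 ± 0.24 (SE), adjusted p = 2.38e-05), and Fas2 at 681 to 1001 RPKM in L3 against 190.0 and 159.8 RPKM in L5 (log2 difference 2.20, adjusted p = 0.00118). The leucine-rich repeat genes caps (21.7, 24.8, 30.8 and 25.7 RPKM in L3 and 0.909 and 1.31 RPKM in L5; log2 difference 3.66, adjusted p = 2.59e-05) and trn (10.5 to 31.8 RPKM in L3 against 1.32 and 0.696 RPKM in L5, log2 difference 3.35, adjusted p = 0.00117), whose products are related, were both higher in L3, as was the Toll-family gene 18w (13.4 to 22.4 RPKM in L3 against 2.51 and 1.80 RPKM in L5, log2 difference 2.60, adjusted p = 0.000406). The founding Toll gene Tl went the other way, with 4.29, 5.65, 7.62 and 6.10 RPKM in L3 and 63.0 and 74.7 RPKM in L5 (log2 difference -3.35 ± 0.25 (SE), adjusted p = 7.05e-05), and L3 was the only low lamina type, at means of 75.5, 57.9 and 54.9 RPKM in L1, L2 and L4.

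The teneurin genes were opposed. Teneurins are large transmembrane proteins that bind each other across synapses. Ten-m was at 41.4, 33.7, 33.6 and 39.7 RPKM in L3 and 5.33 and 5.54 RPKM in L5 (log2 difference 2.56 ± 0.20 (SE), adjusted p = 0.000101), and Ten-a at 9.08, 10.2, 13.5 and 18.2 RPKM in L3 and 332 and 256 RPKM in L5. For Ten-a the log2 difference was -4.46 ± 0.30 (SE, adjusted p = 4.61e-05). The Dscam genes split likewise. Dscam3 was lower in L3 (54.0, 45.0, 43.6 and 56.1 RPKM in L3 and 212 and 154 RPKM in L5; log2 difference -1.85, adjusted p = 0.00164), and L1, L2 and L4 were at most 4.78 RPKM. Dscam2 was higher in L3 (178 to 235 RPKM in L3 against 90.6 and 80.6 RPKM in L5, log2 difference 1.35, adjusted p = 0.00787), a call lost without L5 replicate 1 or 2 (adjusted p 0.075 to 0.107). Dscam (Dscam1) was lower (0.583 to 1.56 RPKM in L3 against 6.15 and 4.30 RPKM in L5, log2 difference -1.65, adjusted p = 0.0077, lost without L5 replicate 1 (adjusted p = 0.116)), and Dscam4 was not called (adjusted p = 0.134).

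The remaining calls of this list were for fred (3.31 to 3.86 RPKM in L3 against 0.0474 and 0.0250 RPKM in L5, log2 difference 2.16) and ed (8.12 to 17.3 RPKM in L3 against 3.38 and 1.28 RPKM in L5, 1.94), higher in L3, and for hbs (6.96 to 13.9 RPKM in L3 against 34.8 and 20.5 RPKM in L5, -1.40) and Nrg (28.6 to 34.8 RPKM in L3 against 67.1 and 55.3 RPKM in L5, -0.90), lower. R7 and R8 had more fred than L3, 24.9 and 34.2 RPKM, and more ed, 25.9 and 22.8 RPKM. The call for ed was lost without L5 replicate 2 (adjusted p = 0.144), that for hbs without L3 replicate 1 or 3 or L5 replicate 1 or 2 (adjusted p 0.0504 to 0.321) and that for Nrg without L3 replicate 1 or 2 or L5 replicate 1 or 2 (adjusted p 0.0673 to 0.295). Of 15 cadherin, receptor phosphatase and proteoglycan genes tested, 2 were higher and 1 lower, 20% called against 10.0% of all genes. The phosphatase gene Ptp99A was at 115, 94.6, 67.1 and 106 RPKM in L3 and 13.8 and 13.2 RPKM in L5 (log2 difference 2.71 ± 0.26 (SE), adjusted p = 0.000337), and Lar at 26.6, 28.4, 25.3 and 26.3 RPKM in L3 and 98.2 and 102 RPKM in L5 (log2 difference -1.87 ± 0.19 (SE), adjusted p = 0.00044), although 83.6% of the exonic bases of Lar overlap other genes. CadN2 was called at a low level (1.26 to 1.84 RPKM in L3 against 0.310 and 0.268 RPKM in L5, adjusted p = 0.0421) and lost without L3 replicate 1, 2 or 4 or L5 replicate 1 or 2 (adjusted p 0.0745 to 0.229).

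The genes for choline acetyltransferase (Cha) and the vesicular acetylcholine transporter (VAChT) were expressed in both, with Cha at 17.5 to 23.5 RPKM in L3 against 35.9 and 27.7 RPKM in L5 (adjusted p = 0.115) and VAChT at 24.6 to 47.1 RPKM in L3 against 33.9 and 34.1 RPKM in L5 (adjusted p = 0.833). Of 14 transmitter synthesis and transport genes tested, the acetylcholinesterase gene Ace was the 1 called (4.27, 3.08, 2.98 and 4.44 RPKM in L3 and 0.259 and 0.165 RPKM in L5, log2 difference 1.94 ± 0.25 (SE), adjusted p = 0.00171). This 1 call is 7.14% of those tested, against 10.0% of all genes. The glutamate transporter gene VGlut, the marker of L1 at 217 RPKM, was at 2.40 to 11.8 RPKM in L3 against 0.227 and 0.481 RPKM in L5 (adjusted p = 0.069), with L3 replicate 2 above the other L3 libraries. Without that library VGlut was called higher in L3 (log2 difference 1.44, adjusted p = 0.0170).

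The histamine receptor gene ort was measured at 23.7, 21.01, 11.9 and 15.0 RPKM in L3 and 1.62 and 1.24 RPKM in L5. All L3 libraries were above both L5 libraries, and L3 replicates 3 and 4 were the lower L3 libraries. For ort the log2 difference was 2.92 ± 0.30 (SE, adjusted p = 0.000468). The other lamina types had means of 8.82, 1.61 and 5.01 RPKM in L1, L2 and L4. HisCl1, for the other histamine-gated channel, was not called, although its libraries did not overlap (5.31 to 10.9 RPKM in L3 against 4.41 and 4.27 RPKM in L5, adjusted p = 0.138), and it was most abundant in R7 and R8, at 166 and 139.8 RPKM.

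Of 12 acetylcholine receptor genes tested, 5 were higher and 1 lower in L3, with a median log2 difference of 0.66. Calls made up 50.0% of these genes, against 10.0% of all genes. The nicotinic subunit genes nAcRalpha-96Aa (nAChRalpha1) and nAcRalpha-96Ab (nAChRalpha2) were at 53.3, 47.7, 54.7 and 43.8 RPKM in L3 and 2.40 and 2.10 RPKM in L5, and at 134, 122, 101.4 and 110.0 RPKM in L3 and 7.29 and 7.68 RPKM in L5. Both were low in L5 and present in L1, L2 and L4 (log2 differences 3.96 and 3.79, adjusted p = 1.2e-05 and 1.57e-05). The subunit gene gfA (nAChRalpha7) was the most abundant of the list in L3, at 938, 984, 947 and 999.7 RPKM in L3 and 130.1 and 109.9 RPKM in L5 (log2 difference 3.01 ± 0.24 (SE), adjusted p = 0.000102). Means of gfA were 32.5 and 983 RPKM in R7 and R8. The gene nAcRalpha-7E (nAChRalpha3) was at 11.7 to 23.6 RPKM in L3 against 2.46 and 0.907 RPKM in L5 (log2 difference 2.70, adjusted p = 0.00219).

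The beta subunit genes were not among the higher ones. nAcRbeta-64B (nAChRbeta1) was not called (298 to 361 RPKM in L3 against 473 and 417 RPKM in L5, adjusted p = 0.305), and nAcRbeta-96A (nAChRbeta2) was lower in L3 (82.8 to 103 RPKM in L3 against 213 and 202 RPKM in L5, log2 difference -1.15, adjusted p = 0.0104, lost without L5 replicate 1 or 2 (adjusted p 0.0953 to 0.123)). Of the muscarinic receptor genes, CG7918 (mAChR-B) was at 12.8, 13.7, 15.3 and 12.7 RPKM in L3 and 0.168 and 0.300 RPKM in L5 (log2 difference 3.57 ± 0.20 (SE), adjusted p = 1.85e-05), and no other type exceeded 0.702 RPKM on average. The related mAcR-60C (mAChR-A) was expressed in both types without a call (19.2 to 54.8 RPKM in L3 against 26.8 and 33.1 RPKM in L5, adjusted p = 0.928).

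Several receptor genes for glutamate and GABA were lower in L3. Of 14 tested, 4 were lower and 2 higher in L3, with a median log2 difference of 0.09. That is 42.9% called, against 10.0% of all genes. The 22 genes of the list summed to 648 to 760.3 RPKM in L3 and 1954 and 2369 RPKM in L5. The GABA-gated chloride channel gene Rdl was measured at 41.2, 55.4, 58.5 and 73.6 RPKM in L3 and 1263 and 907 RPKM in L5. For Rdl the log2 difference was -4.23 ± 0.29 (SE, adjusted p = 5.06e-05). L5 stood with L4, at a mean of 1431 RPKM, and L1 and L2 were at 6.78 and 6.08 RPKM. GluClalpha, for the glutamate-gated chloride channel, was at 56.9, 64.2, 47.6 and 54.3 RPKM in L3 and 368 and 377 RPKM in L5. For GluClalpha the log2 difference was -2.73 ± 0.22 (SE, adjusted p = 0.000114).

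The AMPA-type glutamate receptor genes were low in L3 and high in L5. GluRIA was at 0.976, 2.06, 1.20 and 1.78 RPKM in L3 and 96.3 and 82.4 RPKM in L5 (log2 difference -5.19 ± 0.25 (SE), adjusted p = 9.61e-06), and GluRIB at 3.05, 7.24, 1.94 and 2.76 RPKM in L3 and 125 and 84.8 RPKM in L5. For GluRIB the log2 difference was -4.57 ± 0.41 (SE, adjusted p = 0.000219). L4 was the only other type in which both were above 10 RPKM, with means of 35.4 and 56.0 RPKM. The kainate-type gene CG3822 (KaiR1D) was abundant in both types and not called (212 to 327 RPKM in L3 against 186 and 176 RPKM in L5, adjusted p = 0.302), and neither were Nmdar1 (adjusted p = 0.974) and the GABA-B receptor genes GABA-B-R1, GABA-B-R2 and GABA-B-R3 (adjusted p = 0.114 to 0.983).

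Higher in L3 were the GABA receptor-like gene Grd, at 3.83, 4.05, 4.46 and 2.74 RPKM in L3 and 0.0157 and 0.0489 RPKM in L5 (log2 difference 2.19, adjusted p = 0.000861), and CG8916, at 14.02 to 34.1 RPKM in L3 against 9.14 and 4.29 RPKM in L5 (log2 difference 1.70, adjusted p = 0.0384). For Grd, 27.5% of the exonic bases overlap other genes, and the call for CG8916 was lost without L3 replicate 1, 2 or 4 or L5 replicate 1 or 2 (adjusted p 0.0575 to 0.315).

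Among 12 amine receptor genes tested, 4 were higher and 2 lower in L3, 50.0% called against 10.0% of all genes. The octopamine receptor gene oa2 (Octbeta1R) was at 1.08, 2.54, 0.776 and 1.93 RPKM in L3 and 175 and 148 RPKM in L5, high in both L5 libraries, and L4 had a mean of 26.0 RPKM. For oa2 the log2 difference was -6.02 ± 0.31 (SE, adjusted p = 1.24e-05). A different octopamine receptor gene, Oamb, was higher in L3, at 10.0, 11.2, 9.16 and 9.28 RPKM in L3 and 3.12 and 2.20 RPKM in L5 (log2 difference 1.58 ± 0.21 (SE), adjusted p = 0.00223), with means of 7.18 and 16.2 RPKM in R7 and R8. The other 4 calls were at low levels, and each was lost when either L5 library was left out. Calls over all genes fell then too, so the losses do not show that a single library made these calls. DopR (Dop1R1) was lost without L5 replicate 1 or 2 (adjusted p 0.0846 to 0.159) and D2R (Dop2R) without L3 replicate 1 or L5 replicate 1 or 2 (adjusted p 0.0595 to 0.166). For the serotonin receptors, 5-HT1B was lost without L3 replicate 1 or L5 replicate 1 or 2 (adjusted p 0.0514 to 0.151) and 5-HT7 without L3 replicate 1, 2 or 3 or L5 replicate 1 or 2 (adjusted p 0.0643 to 0.376). None of these 4 exceeded 4 RPKM in any L3 or L5 library.

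**Figure D4:**
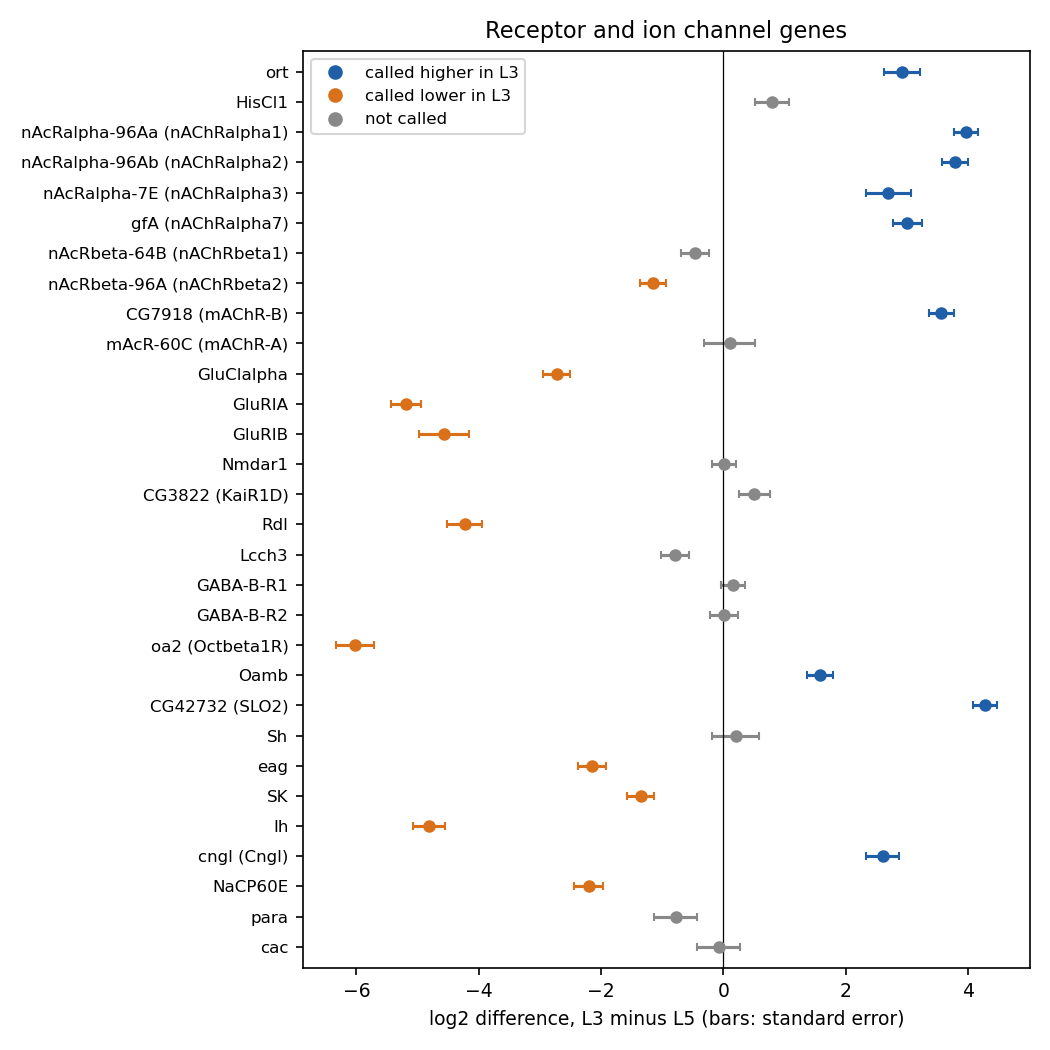
Log2 difference between L3 and L5 (horizontal axis, log2(RPKM + 1), L3 minus L5) of 30 receptor and ion channel genes, with the standard error of the fit as bars. Blue marks genes called higher in L3, such as ort, nAcRalpha-96Aa and CG42732 (SLO2), orange marks genes called lower, such as GluRIA, Rdl and Ih, and grey marks genes not called.

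Ion channel genes also differed in part. Of 16 potassium channel genes tested, 1 was higher and 3 were lower in L3, 25.0% called against 10.0% of all genes. CG42732 (SLO2), for a large-conductance potassium channel, was at 25.0, 25.3, 22.3 and 26.3 RPKM in L3 and 0.339 and 0.313 RPKM in L5 (log2 difference 4.28 ± 0.19 (SE), adjusted p = 7.76e-06), and L5 was the only lamina type below 4 RPKM. The gene eag, for a voltage-gated potassium channel, was at 11.9, 12.7, 18.3 and 14.3 RPKM in L3 and 70.2 and 61.8 RPKM in L5. For eag the log2 difference was -2.15 ± 0.23 (SE, adjusted p = 0.000624). SK, for a calcium-activated channel, was at 49.1 to 64.7 RPKM in L3 against 163 and 136 RPKM in L5 (log2 difference -1.35, adjusted p = 0.00626, lost without L5 replicate 1 (adjusted p = 0.0962)). Hk, for a beta subunit of the Shaker channel, was at 1.30 to 2.63 RPKM in L3 against 18.9 and 7.08 RPKM in L5 (log2 difference -2.23, adjusted p = 0.00775, lost without L5 replicate 1 (adjusted p = 0.077)). Shaker itself (Sh) was not called (58.9 to 132 RPKM in L3 against 80.4 and 72.1 RPKM in L5, adjusted p = 0.836). The L3 libraries of Sh fell into a lower pair, replicates 1 and 2, and a higher pair, replicates 3 and 4.

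Of 17 sodium, calcium and cation channel genes tested, 5 were higher and 4 lower in L3, 52.9% called against 10.0% of all genes. The hyperpolarization-activated channel gene Ih was measured at 6.33, 7.97, 4.76 and 8.91 RPKM in L3 and 236 and 206 RPKM in L5 (log2 difference -4.82 ± 0.26 (SE), adjusted p = 1.54e-05), with means of 127, 101.4 and 27.8 RPKM in L1, L2 and L4. The cyclic nucleotide-gated channel gene cngl was at 366, 304, 386 and 445 RPKM in L3 and 74.2 and 48.8 RPKM in L5 (log2 difference 2.61 ± 0.27 (SE), adjusted p = 0.000537), and Cng (CngA), of the same group, was called at a low level (1.05 to 2.53 RPKM in L3 against 0.0446 and 0.0731 RPKM in L5, adjusted p = 0.0387, lost without L3 replicate 1 or L5 replicate 1 or 2 (adjusted p 0.112 to 0.231)). ppk29, of the degenerin family of sodium channels, was at 14.1, 17.9, 9.65 and 12.03 RPKM in L3 and 1.74 and 2.11 RPKM in L5 (log2 difference 2.27 ± 0.27 (SE), adjusted p = 0.00103), and 10.7% of its exonic bases overlap other genes.

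Lower in L3 were NaCP60E, a gene of the voltage-gated sodium channel family, at 1.31, 1.76, 1.29 and 1.85 RPKM in L3 and 12.5 and 9.11 RPKM in L5 (log2 difference -2.20 ± 0.24 (SE), adjusted p = 0.000624), and unc79, for an auxiliary subunit of the sodium leak channel, at 18.04 to 31.2 RPKM in L3 against 111 and 72.3 RPKM in L5 (log2 difference -1.92, adjusted p = 0.00376, lost without L5 replicate 1 (adjusted p = 0.0639)). Ca-alpha1T, for the T-type calcium channel, was also lower (0.560 to 1.70 RPKM in L3 against 6.74 and 3.14 RPKM in L5, adjusted p = 0.0292, lost without L3 replicate 1 or L5 replicate 1 (adjusted p 0.0747 to 0.302)). The main sodium channel gene para (25.2 to 47.3 RPKM in L3 against 77.4 and 40.0 RPKM in L5, adjusted p = 0.249) and the presynaptic calcium channel gene cac (107 to 223 RPKM in L3 against 185 and 143 RPKM in L5, adjusted p = 0.938) were not called. The light-activated channel genes trp and trpl are given with the photoreceptor genes.

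Release genes were called in 4.35% of those tested, against 10.0% of all genes. Of 23 synaptic release genes tested, RhoGAP100F (Syd-1), for an active zone organizer, was the 1 called (85.5 to 127 RPKM in L3 against 39.0 and 41.7 RPKM in L5, log2 difference 1.36, adjusted p = 0.00923), and it was lost without L5 replicate 1 or 2 (adjusted p 0.0867 to 0.115). At an unadjusted p under 0.05, limma gave 3 higher and 2 lower release genes. The median log2 difference was 0.12, and the 25 genes summed to 1349 to 1690 RPKM in L3 and 1371 and 1544 RPKM in L5. Of 11 pan-neuronal genes, none was higher by limma or at an unadjusted p under 0.05. Nrg was the 1 lower gene (2 lower at an unadjusted p under 0.05), 9.09% called against 10.0% of all genes. Examples are elav (45.6 to 71.6 RPKM in L3 against 74.1 and 54.1 RPKM in L5, adjusted p = 0.738) and n-syb (151 to 207 RPKM in L3 against 172 and 148 RPKM in L5, adjusted p = 0.8287).

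Peptide genes went both ways. Of 19 neuropeptide genes tested, 4 were lower and 1 higher in L3, while the median log2 difference of the list was 0.78. Calls made up 26.3% of those tested, against 10.0% of all genes. All L3 libraries were above L5 for 6 of the genes, and all L5 libraries above L3 for 4. Over all genes tested these orders held for 17.1% and 15.9%. With L3 replicates 1 and 2 alone, 6 were called higher and 4 lower. Beside Ptth, the diuretic hormone gene Dh31 was at 0.0339, 0.443, 0.00927 and 0.277 RPKM in L3 and 8.70 and 17.3 RPKM in L5 (log2 difference -3.50 ± 0.32 (SE), adjusted p = 0.000279), and the insulin-like peptide gene Ilp7 at 0.0710, 0.221, 1.30 and 0.413 RPKM in L3 and 10.8 and 7.69 RPKM in L5. For Ilp7 the log2 difference was -2.82 ± 0.35 (SE, adjusted p = 0.00142). CG8216 (spab) was at 2.58, 2.86, 1.28 and 1.4997 RPKM in L3 and 30.2 and 31.0 RPKM in L5. For CG8216 the log2 difference was -3.41 ± 0.28 (SE, adjusted p = 0.000127). The short neuropeptide F precursor gene sNPF was abundant in both types and called higher in L3 (447, 362, 242 and 193 RPKM in L3 and 101.4 and 121 RPKM in L5; log2 difference 1.41, adjusted p = 0.0495), close to the threshold, and lost without L3 replicate 1, 2 or 3 or L5 replicate 1 or 2 (adjusted p 0.055 to 0.332).

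Genes of the ecdysone response, which follow pupal age, were compared because of the conflict in ages. Of 18 tested, 1 was lower in L3 and none was higher by limma (3 at an unadjusted p under 0.05). The median log2 difference was 0.01, and 5.56% were called, against 10.0% of all genes. The nuclear receptor gene Eip78C was at 20.3, 23.5, 28.7 and 21.6 RPKM in L3 and 62.5 and 59.9 RPKM in L5 (log2 difference -1.35, adjusted p = 0.00535), and the call was lost without L5 replicate 1 or 2 (adjusted p 0.063 to 0.0768). The early gene Eip74EF was at 68.0 to 108 RPKM in L3 against 58.3 and 47.2 RPKM in L5 (adjusted p = 0.12, and 0.0476 without L3 replicate 3), Eip75B at 160.3 to 271 RPKM in L3 against 279 and 201 RPKM in L5 (adjusted p = 0.656) and Eip93F at 36.7 to 82.1 RPKM in L3 against 64.9 and 48.2 RPKM in L5 (adjusted p = 0.986). A p that misses the threshold with 2 L5 libraries does not show equal ages.

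Many of the photoreceptor marker genes were higher in L3 than in L5. Of 21 markers, 15 were tested, 8 were higher and none lower by limma (1 lower at an unadjusted p under 0.05). The median log2 difference was 1.60, and 53.3% of those tested were called, against 10.0% of all genes. The rhabdomere gene chp was at 19.3, 54.6, 48.9 and 59.1 RPKM in L3 and 5.91 and 4.61 RPKM in L5, and R7 and R8 had means of 1345 and 981 RPKM. For chp the log2 difference was 2.78 ± 0.43 (SE, adjusted p = 0.00491). The light-activated channel gene trp was at 11.35, 32.2, 12.1 and 19.9 RPKM in L3 and 1.55 and 1.16 RPKM in L5, with 720.4 and 310.4 RPKM in R7 and R8. For trp the log2 difference was 2.96 ± 0.40 (SE, adjusted p = 0.0024). The transcription factor gene gl was at 6.85, 5.14, 5.35 and 6.56 RPKM in L3 and 1.36 and 1.22 RPKM in L5, with 109 and 92.2 RPKM in R7 and R8. For gl the log2 difference was 1.60 ± 0.22 (SE, adjusted p = 0.00247).

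For the 7 called genes that were abundant in R7 and R8 (chp, gl, trp, inaC, inaD, Arr2 and ninaA), the mean of L3 was 3.39 to 6.93% of the mean of R7 and R8, and that of L5 was 0.26 to 1.30%. Picking genes by their call already puts L3 above L5, and markers not called are left out of these ranges. The number of markers called ranged from 3 to 9 when 1 library was left out. The call for chp was lost without L5 replicate 2 (adjusted p = 0.0685), that for inaC without L3 replicate 3 or 4 or L5 replicate 1 or 2 (adjusted p 0.0616 to 0.27) and that for inaD without L3 replicate 3 or 4 or L5 replicate 1 or 2 (adjusted p 0.0516 to 0.238). Those for Arr2 and ninaA were lost without L5 replicate 1 or 2 (adjusted p 0.0748 to 0.107) and without L5 replicate 1 or 2 (adjusted p 0.0858 to 0.117), and ninaA overlaps other genes over its whole length. The channel gene trpl differed, being more abundant in L3 (7.94, 8.62, 4.16 and 11.4 RPKM in L3 and 0.535 and 0.281 RPKM in L5) than in R7 and R8, at 0.545 and 0.214 RPKM. For trpl the log2 difference was 2.62 ± 0.35 (SE, adjusted p = 0.00219). Of the rhodopsin genes, ninaE, Rh4, Rh5 and Rh6 were below 1 RPKM in every L3 and L5 library. Rh3 passed the limit on low values through L5, at 0 to 0.705 RPKM in L3 against 1.24 and 1.79 RPKM in L5, and was not called (adjusted p = 0.121, and 0.0441 with quantile normalization).

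**Figure D5:**
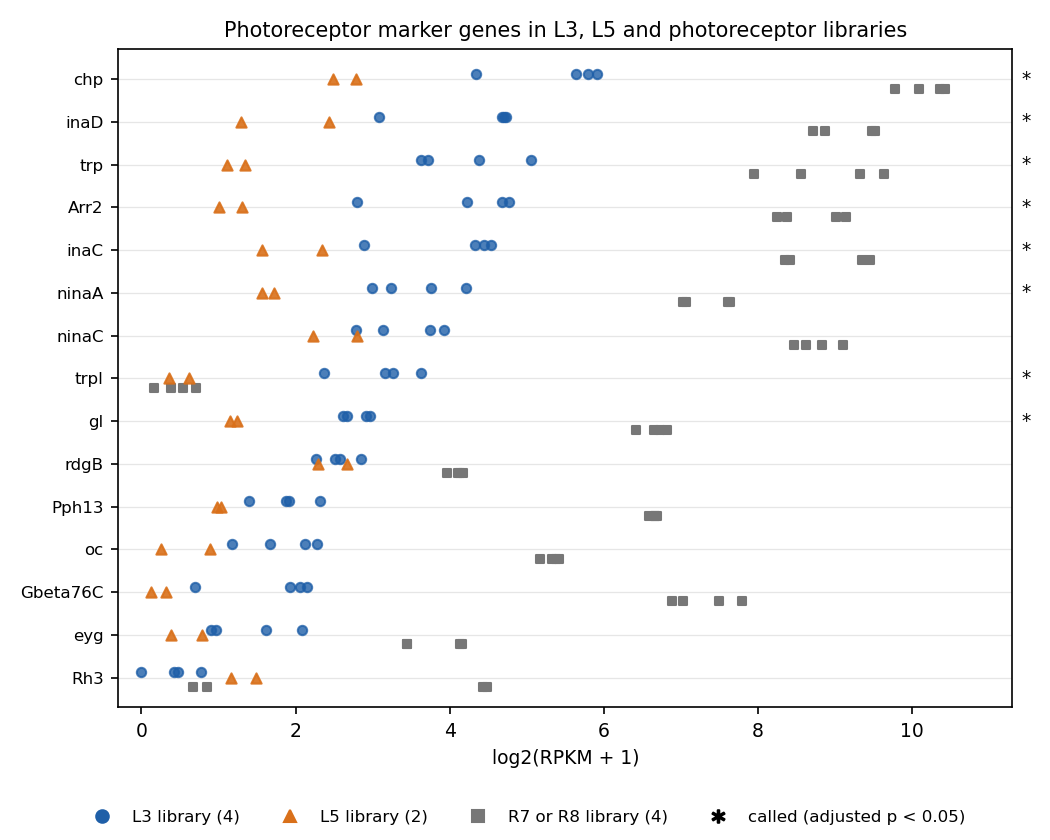
Levels of the 15 photoreceptor marker genes tested, as log2(RPKM + 1), in the 4 L3 libraries (circles), the 2 L5 libraries (triangles) and the 4 libraries of R7 and R8 (squares), with a star for a gene called between L3 and L5. L3 lies between L5 and the photoreceptors for most genes, and trpl is higher in L3 than in any R7 or R8 library.

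The L3 genes erm, NetB, NetA, dpr3, dpr17, CG34113 and CG7918 had means of at most 2.35 RPKM in R7 and R8. For klg, fra, otk, fred, ed and CG14795 the L3 mean was 99.2%, 50.8%, 45.2%, 12.4%, 47.5% and 155% of the mean of R7 and R8.

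Markers of other cells were compared as well. Calls made up 20% of the glia markers and 22.2% of the factors of other optic lobe neurons tested, against 10.0% of all genes. These shares rest on few genes. Of 10 glia markers tested, CG1732 (Gat) was higher in L3 (3.61 to 11.7 RPKM in L3 against 0.866 and 0.723 RPKM in L5, adjusted p = 0.0285, lost without L3 replicate 1 or L5 replicate 1 or 2 (adjusted p 0.0673 to 0.193)) and Gli was higher (9.71 to 18.3 RPKM in L3 against 6.15 and 5.62 RPKM in L5, adjusted p = 0.0399, lost without L3 replicate 1, 2 or 4 or L5 replicate 1 or 2 (adjusted p 0.0704 to 0.254)). The defining glial gene repo was below 1 RPKM in all 6 libraries, and the 11 matched markers summed to 36.1 to 77.5 RPKM in L3 and 26.5 and 30.4 RPKM in L5. Of 4 blood cell, 3 fat body and 3 proliferation markers tested, none was called by limma, and 1, a fat body marker, was higher at an unadjusted p under 0.05. Of the 4 blood cell markers, Pxn was at 59.6 to 169.7 RPKM in L3 against 161 and 131 RPKM in L5 (adjusted p = 0.743), and Cg25C (Col4a1) at 8.62 to 20.1 RPKM in L3 against 13.8 and 8.70 RPKM in L5 (adjusted p = 0.746). The others were crq, at 5.17 to 6.28 RPKM in L3 against 6.14 and 5.25 RPKM in L5, and vkg, at 1.4973 to 2.38 RPKM in L3 against 1.49 and 1.27 RPKM in L5. The 5 that did not pass the limit on low values, Hml, He, nimC1, Ppn and srp, were below 1 RPKM in all 6 libraries. Among 9 factors of other optic lobe neurons, aop was higher (32.3 to 57.0 RPKM in L3 against 20.6 and 12.8 RPKM in L5, lost without L3 replicate 1 or L5 replicate 1 or 2 (adjusted p 0.0571 to 0.225)) and tsh lower (0.308 to 1.52 RPKM in L3 against 4.17 and 3.42 RPKM in L5, lost without L3 replicate 1 or L5 replicate 1 or 2 (adjusted p 0.0585 to 0.2)).

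Of 16 stress genes tested, 2 were higher and 1 lower in L3, with a median log2 difference of -0.47. That is 18.8% called, against 10.0% of all genes. At an unadjusted p under 0.05 the counts were 2 higher and 6 lower, and with L3 replicates 1 and 2 alone 2 were called higher and 5 lower. The 17 genes of the list summed to 11701 to 19830 RPKM in L3, below the 21828 and 23001 RPKM of L5. Among the genes not called, Hsp83 was at 168 to 202 RPKM in L3 against 343 and 301 RPKM in L5 (adjusted p = 0.0686) and Hsp68 at 113 to 225 RPKM in L3 against 341 and 333 RPKM in L5 (adjusted p = 0.124). puc, a target of Jun kinase signalling, was at 45.9 to 62.2 RPKM in L3 against 18.8 and 27.2 RPKM in L5 (log2 difference 1.14, adjusted p = 0.021, lost without L3 replicate 1 or L5 replicate 1 or 2 (adjusted p 0.0564 to 0.249)). Gadd45 was at 1.99 to 2.98 RPKM in L3 against 0.541 and 0.207 RPKM in L5 (log2 difference 1.25, adjusted p = 0.0195, lost without L3 replicate 1 or 2 or L5 replicate 1 or 2 (adjusted p 0.0544 to 0.183)). The small heat shock gene Hsp23 was at 1749, 2118, 1346 and 1326 RPKM in L3 and 4214 and 5001 RPKM in L5 (log2 difference -1.52, adjusted p = 0.0271, lost without L3 replicate 1, 3 or 4 or L5 replicate 1 or 2 (adjusted p 0.0581 to 0.198)). Of 87 ribosomal protein genes tested, 1 was higher and 1 lower by limma (2 higher and 7 lower at an unadjusted p under 0.05). Their median log2 difference was -0.23, and 2.30% were called. Of 21 mitochondrial genes none was called by limma (2 higher at an unadjusted p under 0.05). None of 6 genes of the sex determination and dosage compensation pathways was called by limma or at an unadjusted p under 0.05.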

How the data were processed

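The authors deposited 1 table of RPKM values for 15682 genes in 16 libraries, 1 column each, and no sample column was left unused. TopHat and the BDGP5 build are named in the submitters' processing notes. For versions, the counting tool, annotation and strand, the answer is not given in the sources used here. Values were used without further scaling.

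Genes with at least 1 RPKM in at least 2 of the 6 libraries were fitted as log2(RPKM + 1) with limma 3.58.1 in R 4.3.3 (trended variance, no covariate), and genes were called at a Benjamini-Hochberg adjusted p under 0.05 over all 8534 genes. Fold changes are on this scale, which understates those of low genes. Genes were named by a rule (the 12 largest called differences each way, without overlap and with the higher type averaging 10 RPKM or more) or as members of 29 lists. The members and lists were chosen with earlier results of these data known. Of 613 listed names, 6 matched nothing. The gene just inside the limit on low values is not reported here.

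Depth and reads were recovered from the steps of low values and exon lengths of the BDGP6.54 annotation, and 71.1 to 73.0% of low values came out within 0.05 reads of a whole number in these 6 libraries, too few for a test on reads. They served only for depth, mitochondrial shares and a check that replicates differed beyond sampling noise. No coordinates or sequences were used, since that annotation is a later build. Exon overlaps and current symbols come from it, and 15002 IDs matched. Symbols are the table's, with current ones in parentheses. Alternatives were a pseudocount of 0.1, no filter, a filter of 5 RPKM, quantile normalization, a fit on all 16 libraries, a replicate block, a 2-fold threshold, L3 replicates in pairs, and leaving out each library. Figures were drawn with Python 3.11.15, pandas 2.3.3, numpy 2.4.6 and matplotlib 3.10.9. Reads of overlapping or antisense genes cannot be separated, and Hsp70 copies share reads.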

Additional observations from a re-analysis of the deposited data

Results flagged for a closer look

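In 6 of 176 values examined over the 4 L3 libraries (173 genes named, with the depth, mitochondrial share and number of genes detected), the gap between the extreme library and its nearest neighbour took a share of the whole range above Dixon's limit for 4 samples, which chance passes in about 1 in 20 groups. NetB, the netrin gene, was highest in L3 replicate 1 at 533.7 RPKM, and the other L3 libraries held 353 to 384 RPKM, all far above L5. Dscam2 was lowest in L3 replicate 2 at 178 RPKM, with the others at 233 to 235 RPKM. The serotonin receptor gene 5-HT7 was highest in L3 replicate 4 at 0.916 RPKM, and the other L3 libraries held at most 0.168 RPKM. Gadd45 was highest in L3 replicate 2 at 2.98 RPKM, with the others at 1.99 to 2.09 RPKM. The phototransduction scaffold gene inaD was lowest in L3 replicate 1 at 7.45 RPKM, with the others at 24.5 to 25.5 RPKM. VGlut was highest in L3 replicate 2 at 11.8 RPKM, with the others at 2.40 to 2.87 RPKM.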

How the results depend on the processing

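No called gene changed the sign of its difference under any alternative run. The counts of 499 higher and 354 lower genes stayed within 1.5 times under a pseudocount of 0.1, no filter, a filter of 5 RPKM, quantile normalization, and L3 replicates 3 and 4 alone. They rose to 873 and 678 with a fit on all 16 libraries and to 1260 and 619 with L3 replicates 1 and 2 alone, and fell to 197 and 119 against a 2-fold threshold. Leaving out 1 library gave 228 to 628 higher and 147 to 373 lower genes, the lowest counts without L5 replicate 2 and L5 replicate 1. The replicate block gave 1592 and 743. It uses L3 replicates 1 and 2, and the labels do not say whether the numbers pair the samples. Deviations from the group means correlated at -0.26 for replicates numbered 1 and 0.22 for those numbered 2. With only 2 L5 libraries their deviations mirror each other, so these values cannot decide the pairing. L3 replicates 1 and 2 alone moved the median log2 difference of all genes to 0.13, and replicates 3 and 4 alone to -0.12. The cause of these shifts was not tested. Of 129 called genes named, 89 kept their call whichever library was left out, and 40 lost it without at least 1, most often L5 replicate 1 (36 genes) or L5 replicate 2 (34). Quantile normalization lost 5 of the 129 and no filter 16. Only 2 L5 libraries, of 47.1 and 100.4 M reads, limit every difference given here, and differences of genes near 1 RPKM are understated on this scale.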

Other observations

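Outside the lists, tRNA genes were called in 1 direction, a pattern looked at after the calls by gene class had been seen. Of 33 tRNA genes tested, 13 were higher in L3 and none lower, whereas 438 of 7794 protein-coding genes were higher and 320 lower. Over all genes tested, 5.85% were higher and 4.15% lower. Most of the 13, such as tRNA:CR30298 at 0 RPKM in both L5 libraries, passed the limit on low values through L3 alone. Genes that enter in this way can only be called higher, so the count is no test of direction. All 309 tRNA genes of the table summed to 320, 346, 361 and 361 RPKM in L3 and 106 and 63.0 RPKM in L5, and the types did not overlap. L4 was at 285 and 264 RPKM, R8 at 195.8 and 199.96 RPKM, R7 at 100.97 and 83.3 RPKM, and L1 and L2 at 59.4 to 90.2 RPKM. The part of photoreceptor RNA in the L3 sums was not tested. The 3 genes with the largest log2 differences, tRNA:CR30298, tRNA:CR31885 and tRNA:CR30299, made up 47.0 to 53.8% of the sum in the L3 libraries and 0.27 and 1.92% in those of L5. Of the 13 higher genes, tRNA:CR30299 and tRNA:P:35Bb lie wholly within the exons of other genes, and copies of a tRNA gene can share reads, so single genes are uncertain. The count of higher genes was 10 to 13 when 1 library was left out, and quantile normalization gave 12 higher and 1 lower. At an unadjusted p under 0.05, limma gave 18 higher and 2 lower. Of 40 small nucleolar RNA genes tested, none was higher by limma (3 at an unadjusted p under 0.05) and 4 were lower. These calls were lost when either L5 library was left out. The share called was near the 10.0% of all genes, so the count says little about this class. For the 258 such genes of the table, sums of 117 to 230.5 RPKM in L3 overlapped with 142 and 165 RPKM in L5.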
